A study of Mus musculus with 11 samples.

Results

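Fatty acid desaturases and elongases were examined in the mouse mammary gland, in 9 genes chosen by name: the stearoyl-CoA desaturases Scd1 and Scd2, the front-end desaturases Fads1 and Fads2 with their homologue Fads3, and the elongases Elovl1, Elovl5, Elovl6 and Elovl7. These were 9 of the 22196 genes to which reads could be summed, and all 9 were among the 12716 genes with enough reads to be tested. RNA came from the whole inguinal mammary gland on a chow diet labelled PND16.5, with glands taken 16 days after delivery. The 6 Knockout libraries had the genotype Tsc1-fl/fl; Adipoq-Cre-Tg/+ and the 5 Wild-Type libraries had the genotype Tsc1-fl/fl; Adipoq-Cre-+/+, so both groups carried the floxed Tsc1 alleles and differed in the Cre transgene. Cre driven by the Adipoq promoter acts in adipocytes, whereas the RNA came from all cells of the gland. The design addresses how loss of adipocyte Tsc1, an inhibitor of the growth-regulating kinase complex mTORC1, is reflected in gland transcripts.

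Fatty acids made or taken up by a cell are activated to acyl-CoA and then modified in the endoplasmic reticulum. Desaturases insert double bonds, using electrons passed on by cytochrome b5, and elongases carry out the first, condensing step of a cycle that lengthens the chain by one acetyl unit. Scd enzymes make oleate and palmitoleate from saturated chains, Fads1 and Fads2 act on dietary linoleate and alpha-linolenate to make arachidonate and the long omega-3 acids, and several of these genes are known targets of the lipogenic transcription factor SREBP-1. In the lactating gland the secretory epithelium makes fatty acids for milk triglyceride, and the surrounding fat pad also makes and stores lipid.

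RefSeq promoter windows on GRCm38.p6 were matched for 6 of the 9 genes (Elovl1, Elovl5, Elovl6, Elovl7, Fads2 and Fads3). Those of Fads3 and Elovl7 are shown because these genes had the smallest p-values between genotypes, and those of Fads2 and Elovl1 because their levels moved together across libraries. Each run is the 250 bases before the RefSeq start site, 5′ to 3′ on the gene's strand. Capitals mark exact matches, on either strand, to 3 short motifs known from lipogenic promoters. The sterol regulatory element core was searched as CACCCCA. The NF-Y box was searched as CCAAT, which reads as ATTGG when it lies on the reverse strand. The E-box was searched as CACGTG. Fads3 lies at chr19:10041298-10041547 (+), Elovl7 at chr13:108214154-108214403 (+), Fads2 at chr19:10101504-10101753 (-) and Elovl1 at chr4:118427843-118428092 (+).
Fads3: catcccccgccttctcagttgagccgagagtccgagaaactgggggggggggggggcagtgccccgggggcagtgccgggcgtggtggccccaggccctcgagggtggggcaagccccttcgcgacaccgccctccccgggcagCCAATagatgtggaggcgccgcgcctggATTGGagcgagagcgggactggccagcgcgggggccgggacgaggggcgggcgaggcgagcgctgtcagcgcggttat
Elovl7: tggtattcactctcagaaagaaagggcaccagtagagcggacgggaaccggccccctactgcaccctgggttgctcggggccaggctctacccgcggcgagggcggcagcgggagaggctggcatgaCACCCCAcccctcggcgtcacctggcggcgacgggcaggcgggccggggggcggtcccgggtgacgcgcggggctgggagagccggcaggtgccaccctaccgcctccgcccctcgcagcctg
Fads2: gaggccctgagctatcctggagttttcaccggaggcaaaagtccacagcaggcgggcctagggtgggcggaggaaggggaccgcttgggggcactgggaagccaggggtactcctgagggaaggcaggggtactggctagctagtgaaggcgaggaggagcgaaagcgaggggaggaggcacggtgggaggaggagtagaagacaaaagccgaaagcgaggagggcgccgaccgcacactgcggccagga
Elovl1: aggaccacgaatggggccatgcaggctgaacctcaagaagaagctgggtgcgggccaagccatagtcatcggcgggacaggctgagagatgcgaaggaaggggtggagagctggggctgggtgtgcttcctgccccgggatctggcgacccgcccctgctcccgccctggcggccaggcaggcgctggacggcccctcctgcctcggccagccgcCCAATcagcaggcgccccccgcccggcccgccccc

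The Fads3 run held 1 NF-Y box on each strand, beginning 106 and 78 bases before the start site. In Elovl7 a sterol regulatory element core began 123 bases before the start. Fads2 held none of the 3 motifs, and Elovl1 held an NF-Y box 35 bases before this start. A second RefSeq start of Elovl1 had a sterol regulatory element core 70 bases before it. Elovl5 held an E-box 161 bases before its start and reverse-strand NF-Y boxes at 71 and 17 bases, and the Elovl6 window held none. Among all 32851 windows of 300 bases (250 before to 50 after the start), 37.4% held an NF-Y box, 7.62% a sterol regulatory element core and 7.15% an E-box. The 3 motifs share no overlapping matches in the runs shown, and a match describes letters only, not binding.

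The libraries held 25817975 to 37894237 estimated reads. Milk protein and whey genes (8 secretory epithelium markers, led by Wap) took 50.7% to 59.3% of the reads in Knockout and 56.7% to 63.0% in Wild-Type libraries, so all other genes shared the remainder. Values between genotypes are given as CPM, read counts scaled to a common library size with TMM factors, and levels between genes as TPM, which also divides by transcript length. Tsc1 stood at 10.1 ± 1.33 CPM in the 6 Knockout and at 10.7 ± 1.11 CPM in the 5 Wild-Type libraries (SD), with no difference past the threshold (log2 fold change -0.09 ± 0.11 (SE), adjusted p of 0.772 in edgeR). The Tsc1 sum runs over the whole gene, does not single out the deleted exons and includes cells without Cre, so it did not check the labels. Adipocyte markers were present in every library, and their summed level did not overlap between genotypes, at 946 to 1510 CPM in Knockout against 548 to 864 CPM in Wild-Type. The leading single marker did overlap: Cfd had 625.5 to 1227 CPM in Knockout against 361 to 656 CPM in Wild-Type. The summed levels of the other 9 marker lists (secretory and luminal epithelium, myoepithelium, fibroblasts, endothelium, macrophages, B cells, T cells and skeletal muscle) overlapped, but some of their genes differed before adjustment. All 3 tested B cell markers were lower in Knockout libraries with an unadjusted p under 0.05 (median log2 fold change -2.92), and 2 of 6 luminal, 2 of 5 fibroblast and 1 of 5 myoepithelial markers were higher at that p. Of all genes tested, 12.4% had such a p in either direction and 6.31% were higher. In a whole gland, fewer cells of a type and less RNA per cell cannot be told apart. The labels do not say how the libraries relate to animals, so p-values measure the spread between these libraries only.

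None of the 9 genes passed an adjusted p of 0.05 in edgeR's quasi-likelihood test, where 7 of 12716 genes (0.055%) did. DESeq2 called 1 of them, Fads3, where it called 1.09% of all genes, and limma on the authors' normalized values called 0, where it called 0.0551%. Without adjustment 2 of the 9 genes, Fads3 and Elovl7, had a p under 0.05, which is 22.2% of them against 12.4% of all genes tested, and both were higher in Knockout libraries (6.31% of all genes tested). In no member did the 2 genotypes separate without overlap, as they did in 1.32% of all genes. Of the 9 genes, 5 had a higher and 4 a lower estimate in Knockout libraries, with a median log2 fold change of 0.03 against -0.01 over all genes tested. These directions depend on the scale: by mean TPM, 7 were higher and 2 lower in Knockout libraries, since Scd1 and Elovl1 changed sides. The plot of CPM by library shows the points behind these counts.

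**Figure D1:**
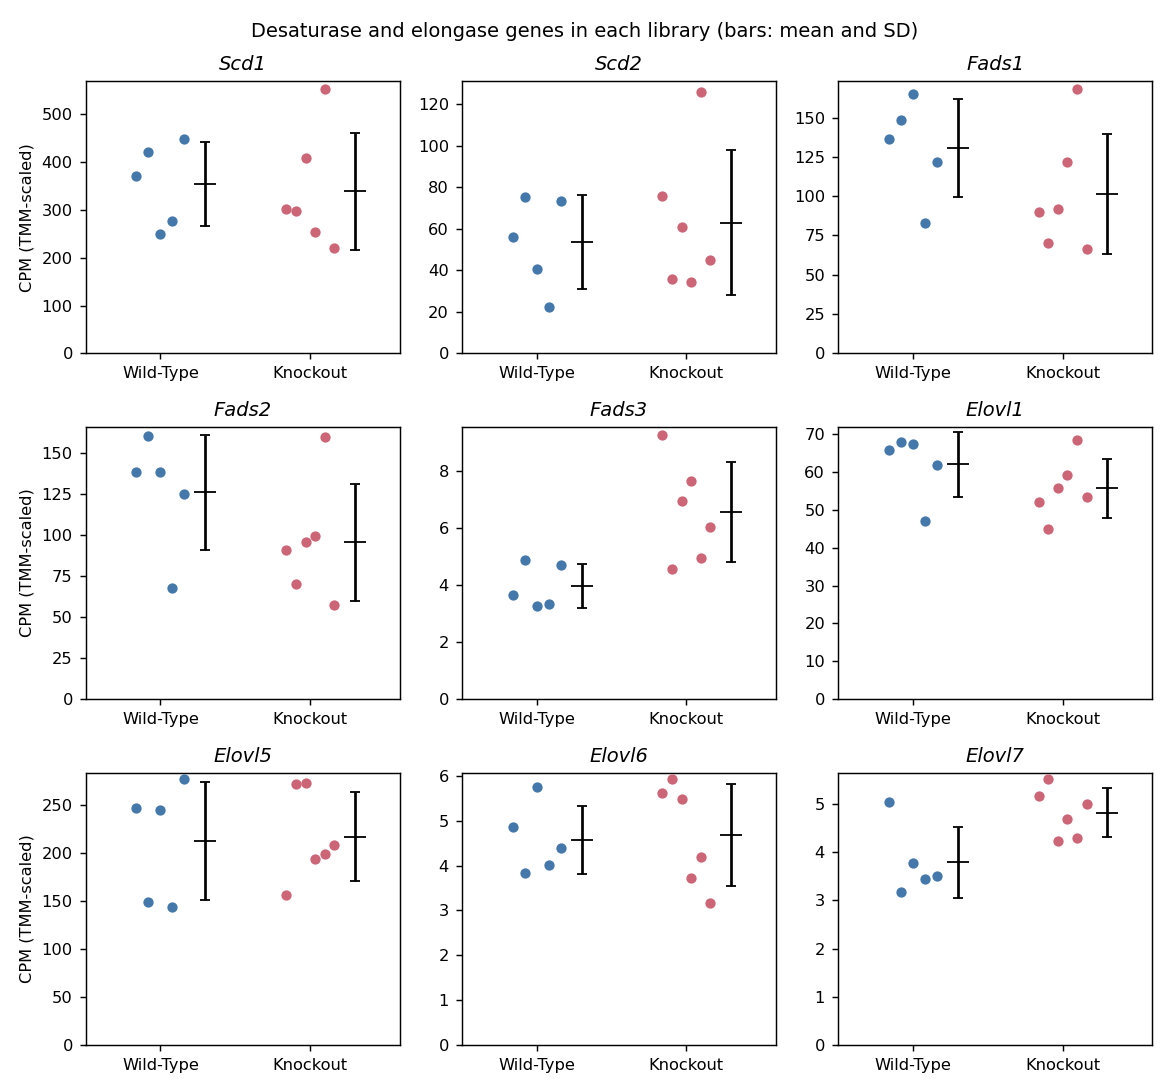
TMM-scaled CPM of the 9 genes in each library, 5 Wild-Type (blue) and 6 Knockout (red), each panel on its own linear axis from 0, with the mean and SD at the right of each group. Only Fads3 and Elovl7 have all 6 Knockout points above the Wild-Type median, and in every panel the 2 groups overlap.

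Per length, the genes fell into a high and a low tier. Scd1 was the highest, with a mean of 150.3 TPM over the 11 libraries (88.0 to 242), followed by Elovl5 at 123.3 TPM (75.4 to 180); their ranges overlapped and Scd1 was the higher in 7 of 11 libraries. Elovl1 followed at 47.6 TPM (41.8 to 55.9), below the lowest library of Elovl5. Fads1 at 38.1 TPM and Fads2 at 36.0 TPM overlapped with Elovl1, with each other and with Scd2 at 25.6 TPM (10.5 to 55.2). Scd2 lay above Fads3 in every library without overlap of their ranges. The low tier held Fads3 at 4.42 TPM, Elovl7 at 4.34 TPM and Elovl6 at 3.43 TPM, whose ranges overlapped with their neighbours in the order. The gland had the highest transcript levels for Scd1, which makes oleate, and Elovl5, which extends polyunsaturated chains, and low levels for Elovl6, which extends palmitate to stearate.

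The place of Fads3 in this order depended on 1 short transcript. Fads3-204 is listed at 225 bases with an effective length of 32 to 34 bases, and held at most 15.6 reads and 8.39% of the gene's reads in a library, but up to 74.3% of its TPM. By the leading transcript alone, Fads3-201, the mean was 1.77 TPM (0.872 to 4.02), the lowest of the 9. In the same way Elovl7-202, listed at 216 bases, reached 56.8% of the TPM of Elovl7 from at most 8.28 reads, and Elovl7-201 alone had 3.43 TPM. Elovl1 is the only member with a second transcript of many reads: Elovl1-203 took 31.2% to 39.3% of its reads in Knockout and 36.5% to 42.4% in Wild-Type libraries, and these shares overlapped. Elovl1-203 held 44.5% to 56.9% of the TPM of Elovl1, so the place of Elovl1 in the order depended on it. By Elovl1-201 alone the mean was 23.6 TPM, below the leading transcripts of Fads1 (37.3 TPM), Fads2 (36.0 TPM) and Scd2 (25.6 TPM). For the other 6 members at least 96.9% of the reads of every library were assigned to 1 transcript. Among them, Elovl6-202, listed at 225 bases, held up to 21.6% of the TPM of Elovl6 from at most 3.30 reads. It had reads in 2 libraries, both Knockout.

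Scd1, the main stearoyl-CoA desaturase of adipose tissue and a lipogenic enzyme of the gland, lies on chr19:44394455-44407879 (-). In Knockout libraries it had a lowest, median and highest value of 221, 299 and 553 CPM. The Wild-Type libraries 1 to 5 had 372, 422, 249, 276 and 450 CPM. The highest value and the lowest were both from Knockout libraries (5 and 6), and Wild-Type lay inside that range. The log2 fold change was -0.06 ± 0.24 (SE), its 95% interval ran from -0.59 to 0.47, and the adjusted p in edgeR was 0.943, so the interval takes in 0.666 to 1.38 times the Wild-Type level. Without Knockout 5 the estimate was -0.25.

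Scd2, a close relative with 90.3% identical coding bases, lies 87590 bases from Scd1 at chr19:44293674-44306864 (+). It was the most variable member, with a coefficient of variation of 55.2% in Knockout and 42.1% in Wild-Type libraries. Its Knockout values ran from 34.2 through a median of 52.9 to 126 CPM, and the 5 Wild-Type values were 56.0, 75.4, 40.5, 22.2 and 73.4 CPM. Knockout 5 held the highest and Wild-Type 4 the lowest value, and the log2 fold change was 0.24 ± 0.40 (SE), its 95% interval ran from -0.65 to 1.12, and the adjusted p in edgeR was 0.847. Without Knockout 5 it was -0.08. Of the 31-base words in the coding sequence, 36.9% of those of Scd1 and 32.3% of those of Scd2 also occur in another listed gene, mainly Scd3, so the split of reads within this family is an estimate.

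Within each library, Scd1 had 4.00 to 12.5 times the TPM of Scd2, with a median of 6.20. The log2 ratio was 2.53 ± 0.44 over the 6 Knockout and 2.83 ± 0.47 over the 5 Wild-Type libraries (SD). The difference of -0.30 did not pass an exact two-sided permutation test over 462 splits (p = 0.310, 0.929 adjusted over 3 ratios; the smallest possible p is 0.00216).

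Fads1 and Fads2 encode the delta-5 and delta-6 desaturases, which act in turn on the essential polyunsaturated acids. They are neighbours on chromosome 19, 81141 bases apart, at chr19:10182888-10196877 (+) and chr19:10062765-10101746 (-). Fads1 had 66.2, 90.9 and 168 CPM as the lowest, median and highest Knockout values, against 136, 148, 165, 83.0 and 122 CPM in Wild-Type 1 to 5. Fads2 had 57.0, 93.1 and 159 CPM in Knockout, against 138, 160, 138, 67.8 and 125 CPM in Wild-Type. In both genes 5 of 6 Knockout libraries lay below the Wild-Type median and Knockout 5 lay above the other 5 of its group. Fads1 had a log2 fold change of -0.37 ± 0.25 (SE), its 95% interval ran from -0.91 to 0.17, and the adjusted p in edgeR was 0.571. For Fads2 it was -0.40 ± 0.27 (SE), its 95% interval ran from -0.98 to 0.18, and the adjusted p in edgeR was 0.566. Knockout 5 moved both estimates: without it they were -0.57 and -0.60, with unadjusted p-values of 0.0170 and 0.0215 and edgeR adjusted p-values of 0.322 and 0.334. Within a library Fads1 had 0.932 to 1.27 times the TPM of Fads2. The log2 ratio averaged 0.09 ± 0.14 over Knockout and 0.09 ± 0.19 over Wild-Type libraries (SD), a difference of -0.0011 (exact permutation p = 0.989).

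Fads3, a homologue whose enzyme introduces a double bond into sphingoid bases, lies 2654 bases from Fads2 at chr19:10041569-10060110 (+). It had 4.57, 6.51 and 9.26 CPM as the lowest, median and highest Knockout values, against 3.64, 4.89, 3.27, 3.34 and 4.70 CPM in Wild-Type 1 to 5. All 6 Knockout libraries lay above the Wild-Type median and 5 of 6 above the highest Wild-Type library, with Knockout 2 the exception. These levels rested on 104 to 417 estimated reads a library. The fold change was 1.66 (95% interval 1.25 to 2.22), on the log2 scale 0.74 ± 0.19 (SE), with an unadjusted p of 0.00213 and an edgeR adjusted p of 0.230. DESeq2 gave the same log2 size (0.74) and an adjusted p of 0.0316, where 0.649% of the genes it tested were called higher and 0.44% lower. When all libraries were kept and the processing changed, adjusted p-values lay between 0.0316 and 0.575, and the other 8 of these alternatives did not pass 0.05. The log2 size ran from 0.72 to 1.09 over these alternatives. Without Knockout 1, the highest library, it was 0.62 with an adjusted p of 0.352 in edgeR. Only 1.82% of the 31-base words in the Fads3 coding sequence recur in another listed gene, mainly in Fads2.

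Fads3 was also set beside the cell type markers. Of 9 listed adipocyte markers (Adipoq, Plin1, Cidec, Lipe, Cfd, Retn, Lep, Plin4 and Adrb3), 8 were higher in Knockout libraries, with a median log2 fold change of 0.40. In edgeR 6 were higher with an unadjusted p under 0.05, as were 6.31% of all genes tested, and 0 passed the adjusted threshold. DESeq2 called 3 of the 9 markers (1.09% of all genes) and limma on the authors' values called 1 (0.0551% of all genes). None of the markers was at 0 in all libraries. Across the 11 libraries Adipoq, the adipokine gene whose promoter drives the Cre, was among the 3 genes most like Fads3 (Pearson r = 0.902, Spearman rho = 0.891; 0.775 after each genotype was centred on its own mean, and 0.851 without the 2 libraries farthest from the median of Adipoq). The other two were Ifi27l2a (r = 0.971) and Cdo1 (r = 0.905). Against the adipocyte list as a whole (mean log2 CPM of its markers) r was lower, 0.715, and 0.472 after centring. Other lists had larger values after centring: -0.83 for endothelium, -0.72 for luminal epithelium, 0.709 for T cells and 0.691 for B cells, while before centring these were -0.47, -0.05, 0.174 and -0.09. Knockout 1 had both the highest Fads3 level and the highest summed adipocyte markers, and it had the highest summed skeletal muscle markers (1799 CPM, against at most 145.5 CPM in Wild-Type). The part of the markers in the Fads3 result was not tested.

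**Figure D2:**
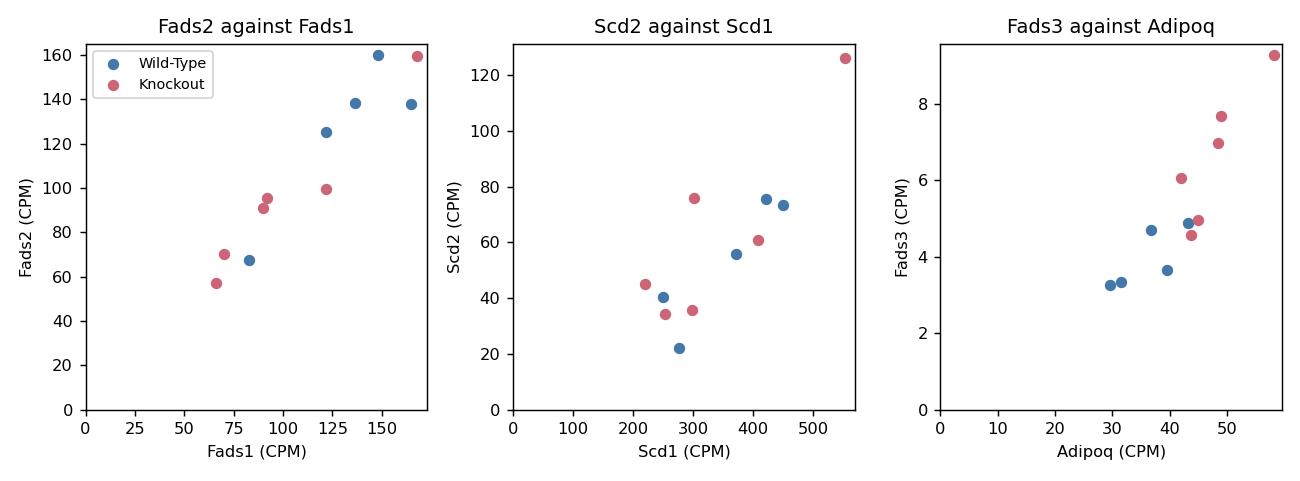
CPM of Fads2 against Fads1, Scd2 against Scd1, and Fads3 against Adipoq, 1 point a library on linear axes, with Wild-Type in blue and Knockout in red. Fads2 rises with Fads1 in both genotypes, Knockout 5 is the far point for Scd1 and Scd2, and Fads3 rises with Adipoq from 29.5 to 58.3 CPM of Adipoq.

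Elovl1, which extends saturated and monounsaturated very long chains, lies at chr4:118428093-118432953 (+). It was among the least variable members, with a coefficient of variation of 14.1% in Knockout and 13.9% in Wild-Type libraries. Knockout values ran from 45.1 through 54.7 to 68.5 CPM, and Wild-Type values were 65.8, 68.0, 67.3, 47.1 and 61.8 CPM. Wild-Type 4 was the lowest of its group, and the groups overlapped. The log2 fold change was -0.15 ± 0.12 (SE), its 95% interval ran from -0.41 to 0.10, and the adjusted p in edgeR was 0.611. Without Wild-Type 4 it was -0.23, with an unadjusted p of 0.0411 and an edgeR adjusted p of 0.304. By the leading transcript alone it was -0.05. Elovl1 overlaps the opposite-strand gene Cdc20 by 53 bases, and the strand setting of the counting is not given in the sources used here.

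Elovl5, an elongase of polyunsaturated chains, lies at chr9:77917364-77984519 (+). Knockout libraries ran from 156 through 203 to 273 CPM and Wild-Type libraries had 246, 148, 245, 144 and 277 CPM. The Wild-Type values fell into 3 high and 2 low libraries whose range took in all 6 Knockout values. The log2 fold change was 0.03 ± 0.20 (SE), its 95% interval ran from -0.41 to 0.47, and the adjusted p in edgeR was 0.965.

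Elovl6, the elongase from palmitate to stearate, lies at chr3:129532355-129638495 (+) and rested on 92 to 253 reads a library. It had 3.16, 4.83 and 5.93 CPM in Knockout, against 4.87, 3.84, 5.75, 4.01 and 4.39 CPM in Wild-Type libraries. Knockout held both the highest and the lowest library, and the log2 fold change was 0.03 ± 0.18 (SE), its 95% interval ran from -0.35 to 0.42, and the adjusted p in edgeR was 0.956. Elovl6 had 0.0182 to 0.0516 times the TPM of Elovl5. The log2 ratio was -5.18 ± 0.51 over the 6 Knockout and -5.23 ± 0.33 over the 5 Wild-Type libraries (SD), a difference of 0.05 (exact permutation p = 0.866, 0.989 adjusted over 3 ratios).

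Elovl7, an elongase of saturated and polyunsaturated very long chains, lies at chr13:108214404-108285683 (+). It had 4.23, 4.85 and 5.53 CPM as the lowest, median and highest Knockout values, against 5.04, 3.17, 3.77, 3.43 and 3.51 CPM in Wild-Type 1 to 5. All 6 Knockout libraries lay above the Wild-Type median, but only 2 of 6 above Wild-Type 1, the highest of its group. The log2 fold change was 0.35 ± 0.13 (SE; 95% interval 0.06 to 0.63), with an unadjusted p of 0.0209 and an edgeR adjusted p of 0.341, on 76 to 233 reads a library. With offsets for transcript length in edgeR it was 0.17 (unadjusted p = 0.451), where the short Elovl7-202 enters. Over the 11 libraries Elovl7 had r = 0.716 with the myoepithelial markers (mean log2 CPM of the list; 0.570 after centring each genotype) and 0.658 with the adipocyte markers (0.396 after centring). With B cell and T cell markers r was -0.67 and -0.64 (-0.43 and -0.59 after centring). The summed level of the myoepithelial markers was 454 to 631 CPM in Knockout against 363 to 656 CPM in Wild-Type, and that of the B cell markers 0.404 to 9.19 CPM against 1.37 to 46.5 CPM. The part of these markers in the Elovl7 result was not tested.

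**Figure D3:**
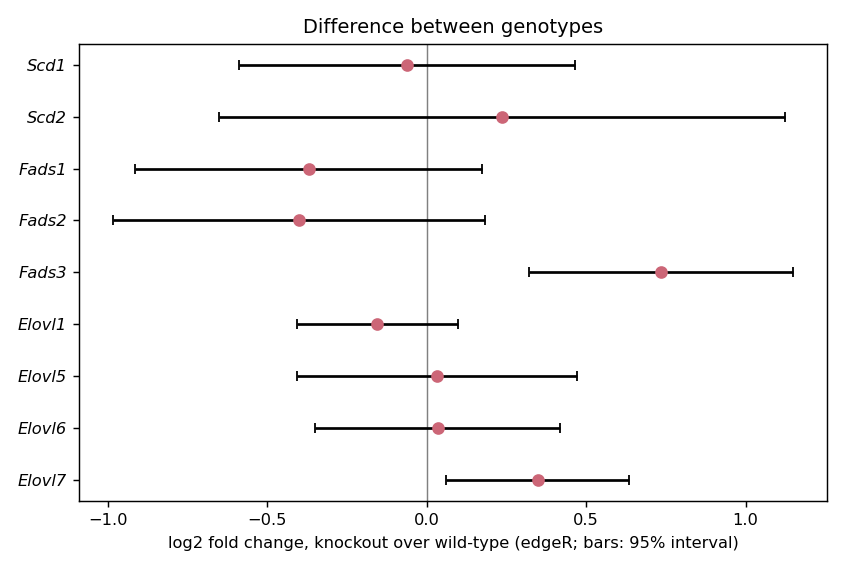
Log2 fold change of Knockout over Wild-Type for each of the 9 genes from the edgeR fit (points) with the 95% interval (bars), on a linear axis of log2 units with 0 marked. Only the intervals of Fads3 (0.32 to 1.15) and Elovl7 (0.06 to 0.63) lie above 0, before adjustment over 12716 genes.

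**Figure D4:**
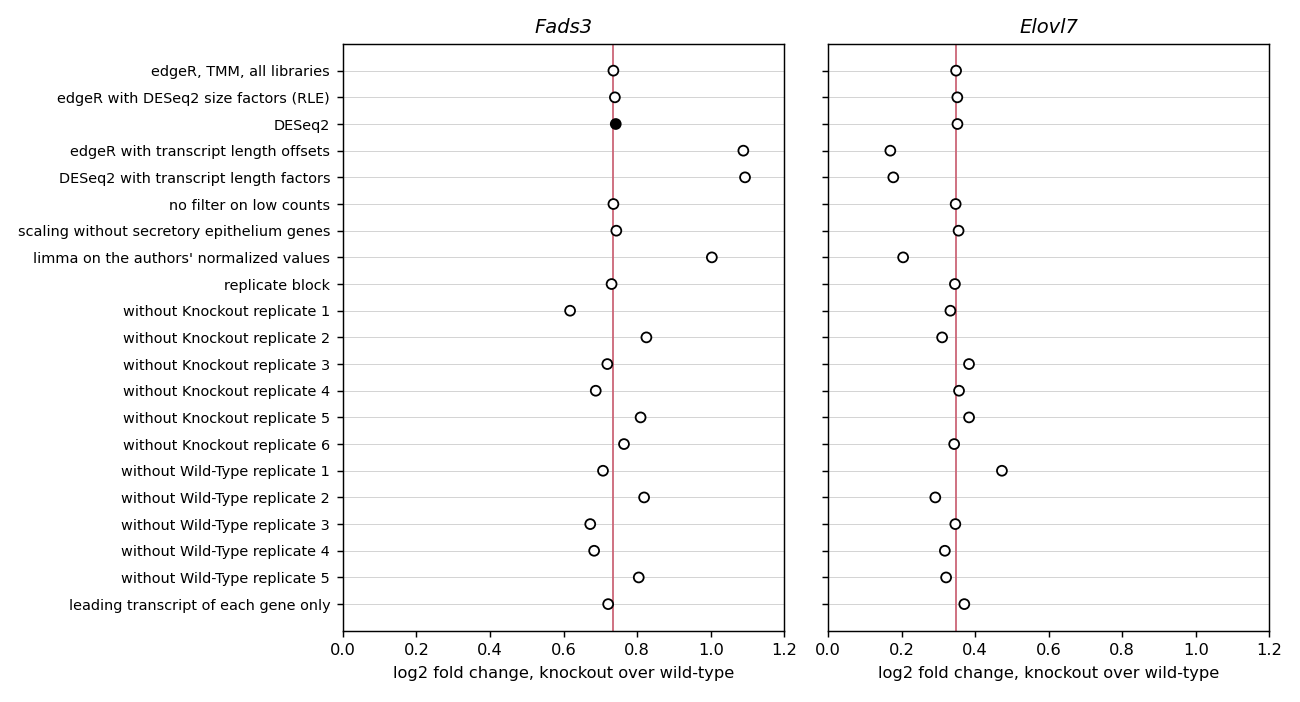
Log2 fold change of Fads3 (left) and Elovl7 (right) under each alternative processing and with each library left out, with filled points where the adjusted p was under 0.05. The line marks the value with all libraries in edgeR; every point lies above 0, the single filled point is Fads3 in DESeq2, and Elovl7 lies lowest where transcript length enters.

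Of the 36 pairs among the 9 genes, 3 had a Pearson r of at least 0.8 over the 11 libraries, all of them among Fads1, Fads2 and Elovl1. Fads1 and Fads2 had r = 0.956 (rho = 0.936), 0.946 after centring each genotype and 0.923 without the 2 libraries farthest from the median of Fads1. Elovl1 had r = 0.918 with Fads1 and 0.903 with Fads2, or 0.905 and 0.887 after centring. Scd1 and Scd2 came next with r = 0.778 (rho = 0.745), which fell to 0.595 without the 2 libraries farthest from the median of Scd1. Fads3 and Elovl7, the 2 genes with small p-values, had r = 0.419, which was -0.22 after centring. These values describe libraries that share a depth scaling and a tissue composition, and no p is attached.

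The genes most like each member over the 11 libraries (5284 genes with a mean of at least 10 CPM) differed between these groups. For Scd1 they were Fbl (r = 0.960), Tomm40 (0.926) and the squalene epoxidase gene Sqle (0.923). Scd2 was closest to Tars (r = 0.966), the sterol synthesis gene Lss (0.935) and Eprs (0.933). The galactosyltransferase gene B4galt1 (r = 0.965) and St6gal1 (0.965), with Gcdh (0.966), were closest to Fads1. Fads2 was closest to Odc1 (r = 0.959), then Fads1 and Gcn1l1 (0.953). Genes close to Elovl1 were Pacsin2 (r = 0.962) and Tm2d3 (0.952). Likeness was looser for Elovl5 (Chd2, r = 0.877, Mtdh, 0.869, and Focad, 0.833), for Elovl6 (Wdr59, r = 0.778, Pygl, 0.760, and Ppp3cb, 0.754) and for Elovl7 (Arrdc3, r = 0.914, Erap1, 0.898, and Fxr1, 0.887).

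Likeness to the 13 genes of fatty acid synthesis and acyl-CoA supply was mixed. Of these 13 genes, 5 had r of at least 0.8 with Fads1, 3 with Fads2 and 5 with Elovl1, and 3, 2 and 3 had r below 0. The median r was 0.583, 0.552 and 0.651. Acsl4, an acyl-CoA synthetase that prefers arachidonate, ran opposite, with r = -0.85, -0.74 and -0.69. At the upper end, Fads1 had r = 0.931 with Acsl1, an acyl-CoA synthetase, 0.919 with Acaca, which makes malonyl-CoA, and 0.870 with Fasn, fatty acid synthase. Elovl1 had r = 0.894 with Acaca and 0.864 with Fasn, and Fads2 had r = 0.886 with Acsl1. With Srebf1, which encodes SREBP-1, r was 0.807 for Fads1, 0.839 for Fads2, 0.819 for Elovl1, 0.735 for Scd2 and 0.691 for Scd1, against 0.0938 for Fads3, -0.18 for Elovl5, -0.23 for Elovl6 and -0.28 for Elovl7. Without the 2 libraries farthest from the median of the member, it was 0.660 for Fads1, 0.814 for Fads2, 0.650 for Elovl1, 0.567 for Scd2 and 0.479 for Scd1. Scd2 had r = 0.849 with Insig1, a sterol-regulated brake on SREBP processing. The secretory epithelium markers (mean log2 CPM) had r = 0.805 with Fads1, 0.745 with Fads2 and 0.834 with Elovl1, and 0.754, 0.679 and 0.828 after centring each genotype. The luminal markers ran opposite, with r = -0.58, -0.61 and -0.65 (-0.46, -0.51 and -0.57 after centring). Skeletal muscle markers had r = -0.57, -0.42 and -0.57, and myoepithelial markers -0.51, -0.51 and -0.44. For Fads3 with the secretory epithelium markers, r was -0.51, and -0.08 after centring. All 8 secretory markers had a lower estimate in Knockout libraries, 0 of them at an unadjusted p under 0.05, with summed levels of 414253 to 604738 CPM in Knockout against 522526 to 747909 CPM in Wild-Type. The part of all these markers in the levels of Fads1, Fads2 and Elovl1 was not tested. The pairs with pathway genes were picked from 450 for their size or for Srebf1, so they describe the libraries only.

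Of 56 other genes listed for the pathway, 50 were tested, none passed the adjusted threshold in edgeR, in DESeq2 or in limma, and 6 (12%) had an unadjusted p under 0.05 against 12.4% of all genes tested. All 6 were higher in Knockout libraries, where 6.31% of all genes tested were higher at that p, among them Acsl3, Acsl4, Abcd2, Ppara and Mbtps2. The median log2 fold change of the 50 genes was -0.05.

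Among 8 further desaturases and elongases, 4 were tested, 1 higher and 3 lower, with a median log2 fold change of -0.07. Scd3, another stearoyl-CoA desaturase, stood at 7.95 ± 2.12 CPM in the 6 Knockout and at 7.05 ± 2.38 CPM in the 5 Wild-Type libraries (SD). Degs1, the sphingolipid desaturase that makes ceramide, had a log2 fold change of -0.07 ± 0.14 SE with an adjusted p of 0.862 in edgeR. Elovl2, Elovl4, Scd4 and Degs2 did not have enough reads for the test. Of 12 genes of the shared elongation steps and electron supply, 10 were tested, 3 higher and 7 lower, with a median of -0.06. Cyb5a, which encodes cytochrome b5, stood at 36.5 ± 4.20 CPM in the 6 Knockout and at 32.7 ± 2.89 CPM in the 5 Wild-Type libraries (SD), and Cyb5r1, a cytochrome b5 reductase, had 23.8 ± 1.62 and 25.8 ± 1.01 CPM.

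The 13 genes of fatty acid synthesis and acyl-CoA supply were all tested, 4 higher and 9 lower, with a median of -0.14. Fasn was among the lower ones, with a log2 fold change of -0.44 ± 0.23 (SE; unadjusted p = 0.0809; adjusted p of 0.468 in edgeR), and Slc25a1, the mitochondrial citrate carrier, had -0.23 ± 0.12 (SE). Thrsp, a lipogenic co-regulator with the highest level of this list (2272 TPM), had 0.01 ± 0.26 (SE). Acsl3, an acyl-CoA synthetase of lipid droplets, stood at 5.89 ± 0.83 CPM (Knockout, SD) against 4.19 ± 0.759 CPM (Wild-Type, SD), which on the log2 scale was a difference of 0.49 ± 0.14 SE with an adjusted p of 0.263 in edgeR. Over the 11 libraries Acsl3 had r = 0.863 with Fads3 (0.675 within genotypes). Of the 15 transcriptional regulators 7 were higher and 8 lower, with a median of -0.01. Srebf1 itself stood at 140.8 ± 50.2 CPM (Knockout, SD) against 151.3 ± 34.0 CPM (Wild-Type, SD) (log2 fold change -0.10 ± 0.24 (SE); adjusted p of 0.889 in edgeR). Ppara, a fatty acid sensor, had 1.33 ± 0.176 and 0.911 ± 0.327 CPM, and Scap, the SREBP escort, had a log2 fold change of -0.11 ± 0.06 (SE). Of 8 genes of the peroxisomal steps that finish docosahexaenoate, 5 were higher and 3 lower, with a median of 0.02. Abcd2, a peroxisomal importer of very long acyl-CoA, stood at 4.08 ± 1.19 CPM (Knockout, SD) against 2.73 ± 0.602 CPM (Wild-Type, SD) (adjusted p of 0.313 in edgeR).

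**Figure D5:**
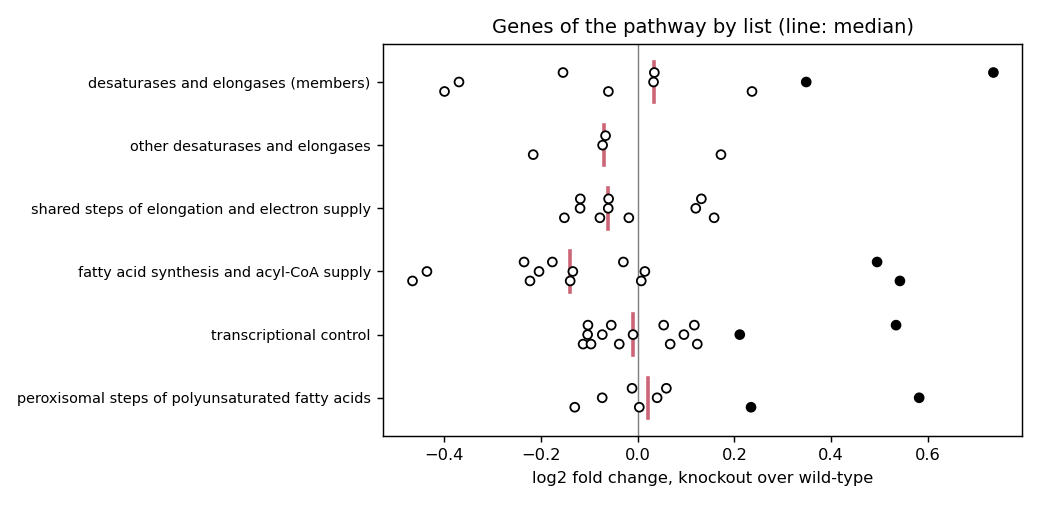
Log2 fold change of Knockout over Wild-Type (x axis) for the 9 members and the 50 tested genes of the 5 pathway lists, 1 point a gene, with filled points where the unadjusted p was under 0.05 and a line at the median of each list. The medians lie between -0.14 and 0.03, and the 8 filled points are all at positive values.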

How the data were processed

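RNA was sequenced in 11 mammary gland libraries made with a directional kit on total RNA, per the labels' protocols. Transcript abundances were made with Salmon 1.3.0 and a comparison with DESeq2 1.28.1 on GRCm38.p6, per the submitters' processing notes; the index, the strand setting and the options are not given in the sources used here. The authors deposited estimated counts, TPM, and effective lengths in bases (other values) for 58204 transcripts per library, and a table of signal values, normalized by the authors, for 22379 genes. Of these transcripts 57452 matched the GENCODE M21 annotation, and 0.195% to 0.265% of the reads of a library were not matched. Of the matched transcripts with a coding sequence, 93.91% were listed at the coding length or up to 3 bases more, so most reads from untranslated parts were not counted.

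For each gene the estimated counts of its transcripts were added up and rounded. Genotypes were compared in edgeR 4.0.16 (R 4.3.3) with TMM scaling, its default filter on low counts, a robust quasi-likelihood fit and Benjamini-Hochberg adjustment over 12716 genes (threshold 0.05). Correlations use log2 CPM with a prior count of 2. Ratios of summed TPM were tested by exact permutation. Alternatives used DESeq2 1.42.0 and limma 3.58.1, the latter on log2 of the authors' normalized signal plus 1. The fit was tested on simulated data. The text names the 9 members, Tsc1, the genes with the smallest p in each direction and the highest TPM of each pathway list, the 3 genes most like each member, and the leading cell type markers; Fasn, Acaca, Acsl1, Srebf1, Insig1, Acsl4 and Mbtps2 were added after their values were seen. Some genes that this rule selects are not reported here. Members and lists were chosen with earlier results of these data known.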

Additional observations from a re-analysis of the deposited data

Results flagged for a closer look

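In 1 of 24 sets of values (9 genes and 3 ratios in each genotype) a library stood apart from its group by Dixon's criterion for the gap to the nearest value. The log2 ratio of Scd1 to Scd2 was 3.65 in Wild-Type 4, against 2.49 to 2.74 in the other 4 Wild-Type libraries, a gap of 0.786 of the range where 0.71 is the 95% limit. Wild-Type 4 had the lowest Scd2 level of all libraries (22.2 CPM) with an Scd1 level inside the range (276 CPM). Without it the difference between genotypes in this ratio was -0.10. Chance alone gives about 1 such value in 20 sets, or 1.2 here.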

How the results depend on the processing

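The count of genes past the adjusted threshold was 7, and it was 146 in DESeq2, 137 in DESeq2 with transcript length factors, 0 with a replicate block and 0 to 28 when single libraries were left out (0 without Knockout 3 or Knockout 6, 28 without Knockout 2); the cause was not tested. With a replicate block, 0 members passed; the replicate numbers did not pair the libraries (r of same-numbered deviations -0.22 to 0.19; 1 of 5 numbers matched best with its own), Fads3 was 0.73 (adjusted p = 0.575) and Scd1 turned to 0.015. Among members, 1 passed in DESeq2 (Fads3, 0.74) and 0 elsewhere. Members with an unadjusted p under 0.05 numbered 2, but 1 with edgeR length offsets, DESeq2 length factors or limma on the authors' values, and 1 to 4 with 1 library left out (4 without Knockout 5 or Wild-Type 4, 1 without Wild-Type 2). From estimated counts in place of TPM, the difference of the Fads1 to Fads2 ratio turned to 0.0090 and that of Elovl6 to Elovl5 to -0.046. With 1 library left out, log2 fold changes ran from -0.25 to 0.045 for Scd1, -0.079 to 0.39 for Scd2, -0.57 to -0.27 for Fads1, -0.60 to -0.28 for Fads2, 0.62 to 0.83 for Fads3, -0.23 to -0.10 for Elovl1, -0.075 to 0.15 for Elovl5, -0.039 to 0.13 for Elovl6 and 0.29 to 0.47 for Elovl7. The ratio differences ran from -0.41 to -0.10 for Scd1 to Scd2, -0.050 to 0.061 for Fads1 to Fads2 and -0.13 to 0.17 for Elovl6 to Elovl5. The alternative of leading transcripts only was chosen after seeing the data and gave 5 genes past the threshold. Fads3, Elovl6 and Elovl7 had the fewest reads (76 to 417 a library), with SEs of 0.13 to 0.19 on the log2 scale, against 0.12 for Elovl1 and 0.20 to 0.40 for the other 5 members.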
